A study of Mus musculus with 4 samples.

Results

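Genes of the integrated stress response were examined in mouse bone marrow derived macrophages with and without PP2ACα, a catalytic subunit of the phosphatase PP2A that the gene Ppp2ca encodes. All cells had been stimulated with lipopolysaccharide (LPS), a bacterial surface molecule that macrophages sense through Toll-like receptor 4. The 9 genes were Atf4, Atf5, Atf3, Ddit3, Trib3, Asns, Ddit4, Sesn2 and Eif4ebp1, chosen by name as factors and targets of this pathway from the 22180 genes that had an array feature annotated with a single symbol. Each of the 9 had 1 such feature, and all 9 were among the 12542 genes tested, which were those with a mean over the 4 arrays at or above the median of all deposited features (3.53 log2 units).

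The control group (PP2ACαfl/fl) carried floxed alleles of the gene without Cre, and the knockout group (PP2ACαfl/fl;lyM-Cre) carried the same alleles with a Cre that removes exon 1 in myeloid cells. Cells of both groups grew for 6 days in L-cell supernatant and then received LPS at 100 ng/ml, and RNA was taken at 2 hours, so an effect of the genotype without LPS was not measured here. Each group had 2 arrays, labelled as biological replicates, and whether these came from separate mice, and the age, sex and strain, were not given in the sources used here. Precision is limited by the number of arrays, and every p-value measures only the spread among these arrays, which may be technical.

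In the integrated stress response, kinases that sense viral RNA, misfolded protein, amino acid shortage or haem shortage phosphorylate the translation initiation factor eIF2. General protein synthesis then slows, while the mRNA of the transcription factor ATF4, which carries upstream reading frames, is translated more. ATF4 dimerises with other basic leucine zipper (bZIP) proteins and activates genes of amino acid uptake and synthesis, of transfer RNA charging, and of feedback and cell death. The arrays measured mRNA, so neither eIF2 phosphorylation nor ATF4 protein was assessed.

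The deposited values are log2 expression after robust multi-array averaging, and a difference of 1 is a 2-fold change. The targeted gene, Ppp2ca, read 8.25 and 7.59 on the control arrays and 4.36 and 3.39 on the knockout arrays, and Lyz2, the lysozyme gene in which the commonly used myeloid Cre is inserted, differed by -5.19 (SE 0.14, limma adjusted p = 0.00095). Array medians lay between 3.50 and 3.57, and r between arrays was 0.986 to 0.990 (across features, which are not independent replicates). All 8 macrophage markers passed the filter. Of these Lyz2 fell, Fcgr1, an Fc receptor gene, rose by 0.94 (10.26 and 10.04 in control, 11.17 and 11.00 in knockout; limma adjusted p = 0.016), and Adgre1, Csf1r, Cd68, Itgam, Mertk and Cd14 did not pass. The mean level of 3 B cell markers, 2.67 to 2.79, and of 6 fibroblast markers, 3.03 to 3.13, stayed below the filter level on every array. Of the fibroblast markers Col1a1 (3.98 to 4.05) and Col1a2 (3.66 to 4.04) were above this level on each array, and neither passed. Of 8 neutrophil markers 4 were below the filter, and the other 4 all had positive differences but none passed (limma, 1 with an unadjusted p under 0.05). The mean level of 3 monocyte markers was 5.78 and 5.74 in control and 6.50 and 6.36 in knockout, and Ccr2 and Ly6c2 rose by 0.83 and 0.76. Of 3 tested erythroid and megakaryocytic markers Vwf (-0.88) and Ppbp (-0.45) fell, and Pf4 (-0.19) did not pass (limma adjusted p = 0.51). Klf1 of the same list lay below the filter and was not tested (3.22 and 2.95 in control, 3.37 and 3.34 in knockout). Of the dendritic, T and NK, and mast cell markers most lay below the filter and none passed (limma, 1 with an unadjusted p under 0.05). The part of these cells in the results below was not tested. In bulk RNA, fewer cells that express a gene and less RNA per cell cannot be told apart. Only the knockout group carried Cre. Effects of Cre or of the lower Lyz2 therefore cannot be told apart from those of PP2ACα loss.

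Among the 9 genes, asparagine synthetase (Asns) fell and Ddit3, which encodes the transcription factor CHOP, rose in the knockout. A gene is said to rise or fall when its limma p, adjusted by the Benjamini-Hochberg method over all 12542 tested genes, was under 0.05. These 2 of 9 (22.2%) stand beside the 6.79% of all tested genes that passed, 3.30% higher and 3.49% lower; with 9 genes the difference between these shares rests on few calls. The median difference of the 9 was -0.17, against 0.0076 over all tested genes, with 7 negative and 2 positive. The groups did not overlap for 6 of the 9, 4 of them lower and 2 higher, and of all tested genes 55.3% did not overlap, 26.5% lower and 28.8% higher. An unadjusted p under 0.05 was found for the same 6, and for 24.7% of all tested genes. A 1.5-fold change of the group means, the cutoff in the series' design text, was reached by Asns and Ddit4, and by 5.24% of all tested genes.

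**Figure D1:**
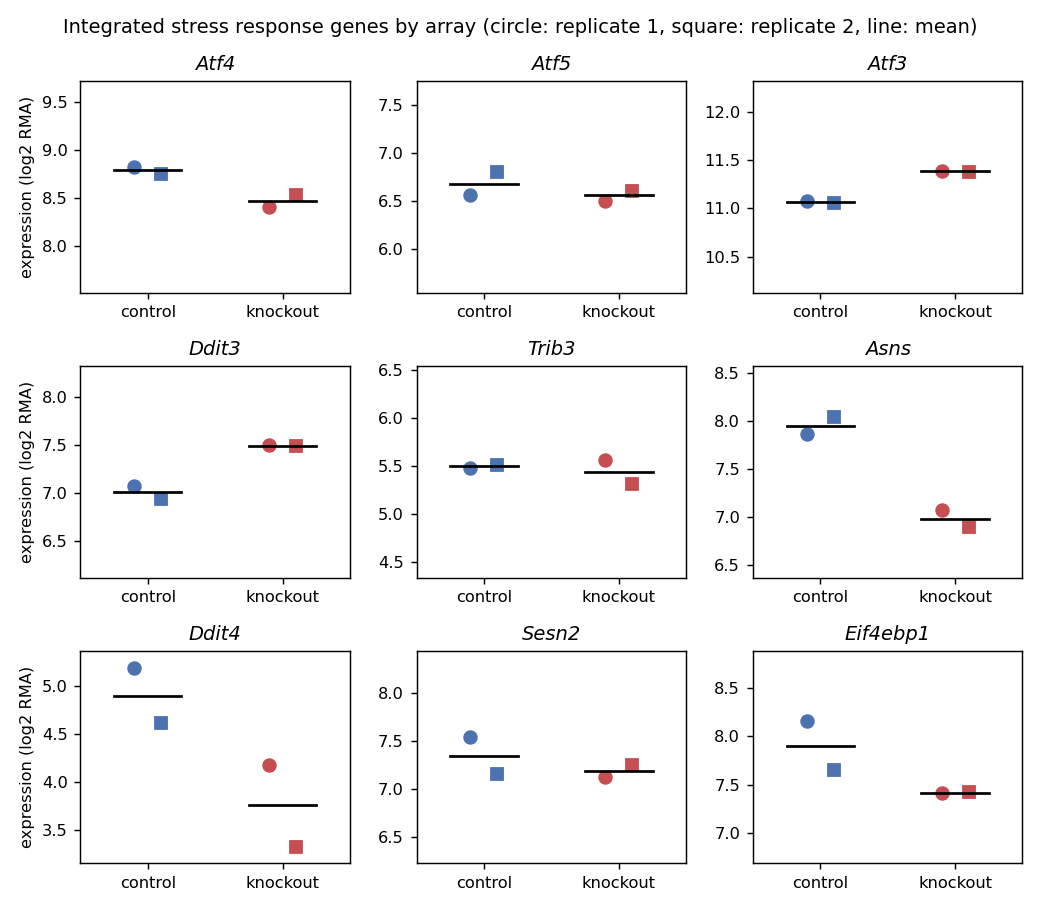
Expression (log2, robust multi-array average) of the 9 integrated stress response genes on each array, with blue points for control and red for knockout, circles for replicate 1, squares for replicate 2, and black lines for group means (n = 2 each). All panels span the same height; Asns is lower and Ddit3 higher on both knockout arrays, and Ddit4 ranges from 5.19 to 3.33 with wide gaps within each group.

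Atf4, the factor at the centre of the pathway, read 8.83 and 8.75 in control and 8.41 and 8.53 in knockout macrophages. Both knockout arrays lay below both control arrays, by 0.22 at the nearest point. The difference was -0.32 (SE 0.09, 95% interval -0.56 to -0.08), or 80.1% of the control level, and it did not pass (limma adjusted p = 0.11). Atf5, a bZIP factor whose mRNA is also subject to stress-dependent translation, read 6.57 and 6.80 in control and 6.50 and 6.61 in knockout. These groups overlapped, and the difference of -0.13 had an interval of -0.41 to 0.16 (limma adjusted p = 0.54). With an intensity trend in limma's prior Atf4 passed (adjusted p = 0.036).

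Atf3, a bZIP factor induced by LPS that is known to restrain inflammatory cytokine genes, read 11.08 and 11.06 in control and 11.39 and 11.38 in knockout. The arrays of each group were within 0.02 of each other, and the groups were 0.30 apart. Its difference was 0.31 (SE 0.08, interval 0.10 to 0.52), a 1.24-fold higher level that did not pass (limma adjusted p = 0.091). With the filter raised to a mean of 5 log2 units it had an adjusted p of 0.041, and with the intensity trend 0.014.

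Ddit3 encodes CHOP, a C/EBP-family protein that acts downstream of ATF4 and promotes death of cells under prolonged stress. Its values were 7.07 and 6.94 in control and 7.50 and 7.49 in knockout. Both knockout arrays were higher, and the gap of 0.42 between the groups exceeded the spread of 0.13 within the control group and of 0.01 within the knockout group. Ddit3 rose by 0.49 (SE 0.09, interval 0.26 to 0.72), or 1.40-fold, with a limma adjusted p of 0.042. The call is close to the threshold: the adjusted p was 0.058 with each array centred on its median, 0.10 without the filter and 0.094 to 0.20 with any of the 4 arrays left out. Trib3, a pseudokinase induced by ATF4 and CHOP that feeds back on ATF4 activity, did not pass. It read 5.48 and 5.51 in control and 5.56 and 5.32 in knockout, with the knockout arrays on either side of the control arrays. The difference of -0.06 had an interval of -0.34 to 0.22 (limma adjusted p = 0.80).

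Asns makes asparagine from aspartate and glutamine and is a classical ATF4 target in amino acid shortage. Its control arrays read 7.86 and 8.04 and its knockout arrays 7.07 and 6.90. The groups were 0.80 apart, against a spread of 0.17 within each. Asns fell by 0.97 log2 units (SE 0.11, interval -1.25 to -0.69), to 51.1% of the control level (limma adjusted p = 0.013), and 1.49% of all tested genes had a larger difference in either direction. With any of the 4 arrays left out the difference stayed between -1.05 and -0.88, while its adjusted p was 0.053 to 0.088. In those fits, which leave 1 array in a group, neither Asns nor any other of the 9 passed.

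The remaining 3 genes link stress to the growth kinase complex mTORC1. Ddit4, which encodes REDD1, an inhibitor of mTORC1 induced by stress, low oxygen and glucocorticoids, read 5.19 and 4.61 in control and 4.18 and 3.33 in knockout. Both knockout arrays were lower, by 0.43 at the nearest point, but the arrays differed by 0.59 within the control group and by 0.84 within the knockout group, and the lowest lay under the filter level. The difference of -1.14 was the largest of the 9 and also the least precise (SE 0.32, interval -1.94 to -0.34), and it did not pass (limma adjusted p = 0.10). It was -0.72 without knockout replicate 2 and -1.56 without knockout replicate 1, with adjusted p-values of 0.29 and 0.087.

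Sesn2 encodes sestrin 2, a leucine-binding protein that holds back mTORC1 and is a target of ATF4, NRF2 and p53. Its values were 7.54 and 7.16 in control and 7.13 and 7.25 in knockout, and the groups overlapped. The difference of -0.17 (interval -0.53 to 0.20, limma adjusted p = 0.54) rested on control replicate 1 and was 0.03 without it. Eif4ebp1 encodes 4E-BP1, the protein that binds the cap-binding factor eIF4E and blocks translation until mTORC1 phosphorylates it. It read 8.16 and 7.65 in control and 7.41 and 7.42 in knockout. Control replicate 1 stood highest and the groups were 0.23 apart, less than the spread of 0.52 within control. The difference was -0.49 (SE 0.18, interval -0.93 to -0.05, limma adjusted p = 0.17), and it was -0.23 without control replicate 1.

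**Figure D2:**
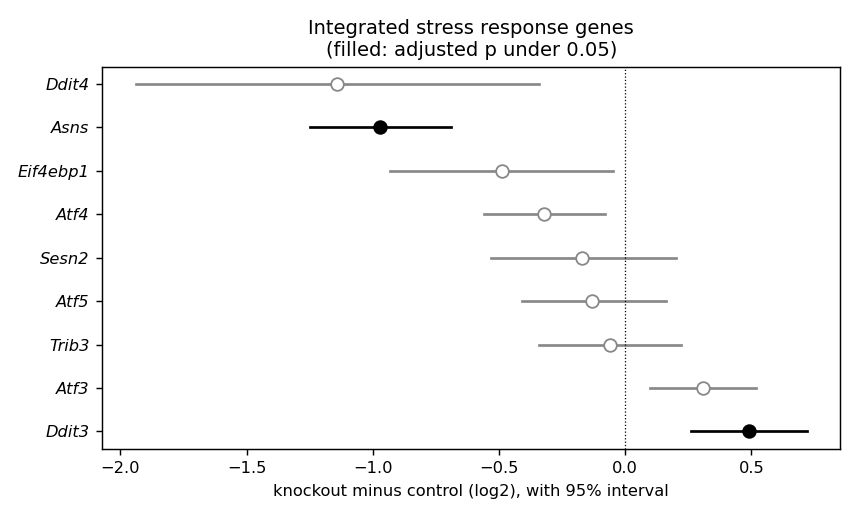
Difference between knockout and control (log2, horizontal axis) for each of the 9 genes, with the 95% interval of the limma fit to 2 arrays per group; filled black points passed an adjusted p of 0.05 and open grey points did not. Asns at -0.97 and Ddit3 at 0.49 passed, and the interval of Ddit4 is the widest, from -1.94 to -0.34.

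Relative to Atf4 on the same array, Ddit3 stood at -1.76 and -1.80 in control and at -0.91 and -1.04 in knockout, and Asns at -0.96 and -0.71 against -1.34 and -1.63. The mean of the Ddit3 to Atf4 log ratio differed by 0.81 between knockout and control, and that of Asns to Atf4 by -0.65. That of Atf3 to Atf4 differed by 0.63. Each of these ratios, picked after their values were seen, had non-overlapping groups. For Ddit3 and Atf3 this was fixed beforehand, because they were higher and Atf4 lower on both knockout arrays. The share of all gene pairs without overlap was not computed. The two-sided exact permutation p of each ratio, 0.333, is the smallest that 2 against 2 arrays allow. The sizes of the ratios depend on the probes and do not compare the amounts of the mRNAs.

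ATF4 binds, with a C/EBP partner, a composite element known as the C/EBP-ATF response element. Its core was searched as TGATGNAA on both strands (TTNCATCA on the other) in the 250 bases before each gene start of the RefSeq promoter table (GRCm38.p6), together with TGACGT, also on both strands, which is part of the site that ATF and CREB dimers prefer. The patterns do not overlap each other in the windows shown. The table held 9 promoters of 8 of the 9 genes. The composite core occurred in those of Asns and Atf3, and in 3.45% of all 32851 promoters, and TGACGT in that of Atf3 and in 6.47% of all. The 120 bases that end just before the gene start are shown for both genes that passed, for Atf3, and for Slc7a11, the ATF4 target with the largest fall (below), with matches in capitals.
Asns, GRCm38.p6 chr6:7693210-7693329, minus strand: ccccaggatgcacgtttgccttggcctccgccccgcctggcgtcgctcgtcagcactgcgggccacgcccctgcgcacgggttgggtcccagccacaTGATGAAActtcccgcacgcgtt
Ddit3, GRCm38.p6 chr10:127290673-127290792, plus strand: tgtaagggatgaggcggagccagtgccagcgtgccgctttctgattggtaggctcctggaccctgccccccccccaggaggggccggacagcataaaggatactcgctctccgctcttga
Atf3, GRCm38.p6 chr1:191183334-191183453, minus strand: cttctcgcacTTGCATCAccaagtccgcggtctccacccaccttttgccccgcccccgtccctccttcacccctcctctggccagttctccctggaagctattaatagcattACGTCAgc
Slc7a11, GRCm38.p6 chr3:50443614-50443733, minus strand: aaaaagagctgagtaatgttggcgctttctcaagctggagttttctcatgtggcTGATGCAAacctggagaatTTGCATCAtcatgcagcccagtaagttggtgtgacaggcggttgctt
The match in Asns began 23 bases before the start and read TGATGAAA, and that in Atf3 began at 110 bases and lay on the other strand; Atf3 also held ACGTCA, the other pattern on the other strand, at 8 bases. Slc7a11 held a pair of matches, facing each other, at 66 and 47 bases. Ddit3 had no match to either pattern in this window. Of the list of other ATF4 and CHOP targets described below, 36 genes were in the table and 9 held the composite core, 6 of them among the 14 that had passed the test (5 that fell, and Vldlr, which rose). TGACGT occurred in 3 of the 36 and in 1 of the 14. The list holds known ATF4 and CHOP targets and was chosen with earlier results of these data known. These counts are therefore not an independent comparison with all promoters. A match is a run of letters and was not tested for binding.

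Of the other known targets of ATF4 and CHOP, 33 had a negative and 9 a positive difference. Of the 42 tested genes of this list (46 genes had a feature), 16 fell and 1 rose. That is 40.5% against 6.79% of all tested genes, with a median difference of -0.40 against 0.0076. The list, like those below, was chosen with earlier results of these data known, so its share is not an independent comparison. Slc7a11, the cystine-glutamate exchanger, read 7.44 and 7.27 in control and 5.78 and 5.73 in knockout, a fall of 1.60 log2 units (3.02-fold, limma adjusted p = 0.0031). Slc7a5, the large neutral amino acid transporter, differed by -1.25, the cationic amino acid transporter Slc7a1 by -0.99 and the glutamine transporter Slc1a5 by -0.73. Slc3a2, the heavy chain that pairs with Slc7a11 and Slc7a5, differed by 0.07 and did not pass (adjusted p = 0.72). Nor did the amino acid carriers Slc1a4 at -0.53 (adjusted p = 0.054), Slc38a2 at -0.15 (0.37) and Slc36a1 at 0.36 (0.11).

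Among enzymes of the list, Psat1 and Phgdh of serine synthesis fell by 1.17 and 0.76, Aldh18a1 of proline synthesis by 1.08, and the mitochondrial one-carbon enzymes Mthfd2 and Shmt2 by 0.99 and 0.70. Psph, the last enzyme of serine synthesis, differed by -0.11 (limma adjusted p = 0.73). Chac1, which degrades glutathione, promotes cell death and lies downstream of ATF4 and CHOP, read 6.16 and 5.72 in control and 5.11 and 4.79 in knockout, a fall of 0.99. Of 11 tested transfer RNA synthetase genes on the list, all with negative differences, 5 fell: Yars (-0.70), Gars (-0.58), Tars (-0.56), Eprs (-0.46) and Cars (-0.46). Herpud1, of endoplasmic reticulum protein degradation, fell by 0.83.

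Vldlr, a lipoprotein receptor, was the gene of the list that rose, by 0.51, from values of 3.54 and 3.38 to 3.94 and 4.01 close to the filter level. Ppp1r15a, which encodes GADD34, the stress-induced subunit that directs dephosphorylation of eIF2, differed by 0.11 (limma adjusted p = 0.50). Bcl2l11 and Bbc3, death genes of the BCL-2 family, differed by 0.16 and 0.12, and Sqstm1, an autophagy receptor, by 0.09; none of these passed. With any of the 4 arrays left out, 2 to 4 of the 42 genes passed; Slc7a11 and Slc7a5 were among them in all 4 fits, with adjusted p-values of 0.028 to 0.034 and 0.034 to 0.045. With all 20673 features that reached the filter level as units none passed (limma).

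**Figure D3:**
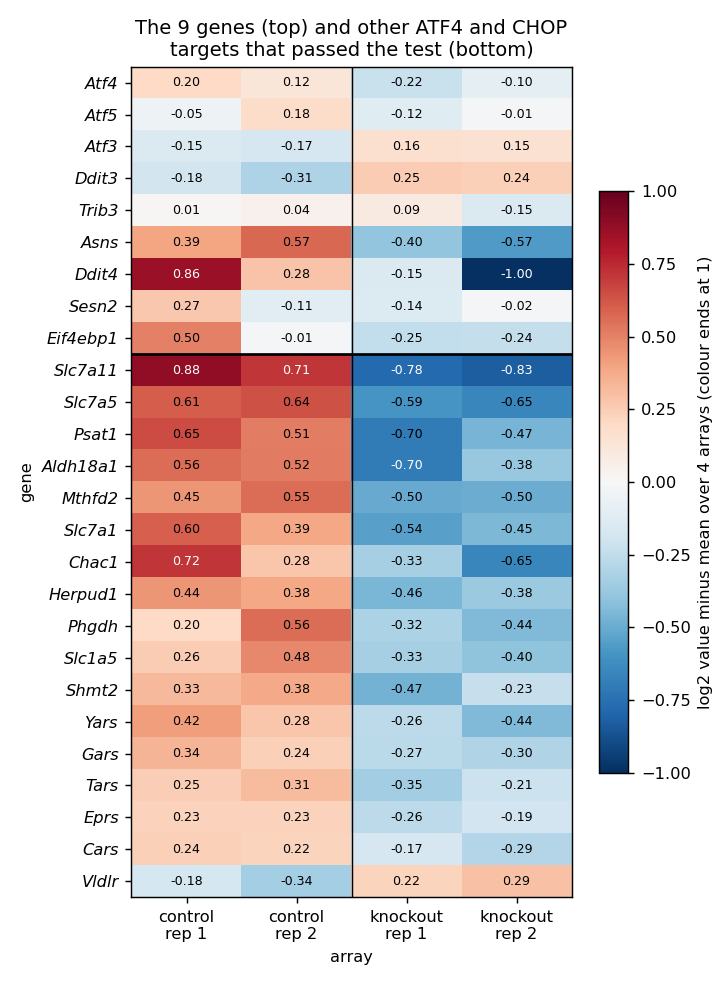
Log2 value of each gene on each array minus its mean over the 4 arrays (red above, blue below, value printed in each cell), with the 9 genes above the line and the 17 other ATF4 and CHOP targets that passed the test below it. Asns shares the lower knockout values of most targets, Ddit3 and Vldlr are higher on both knockout arrays, and Trib3 and Atf5 stay close to their means.

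Upstream, 1 of the 4 eIF2 kinases passed. Eif2ak2, which encodes PKR, the kinase that senses double-stranded RNA and is itself induced by interferon, read 9.07 and 8.95 in control and 9.76 and 9.72 in knockout, a rise of 0.73 (SE 0.09, limma adjusted p = 0.016). Eif2ak4, encoding the amino acid sensor GCN2, differed by -0.33 (adjusted p = 0.080), Eif2ak3, encoding the endoplasmic reticulum sensor PERK, by -0.17 (0.34), and Eif2ak1, the haem-regulated kinase, by -0.06 (0.72). Eif2ak2 was the only gene that passed among 19 tested genes of eIF2, its exchange factor eIF2B, their kinases and the phosphatase (5.26% against 6.79% of all genes). The median difference of these 19 was -0.06, and 7 of them had an unadjusted limma p under 0.05, as did 24.7% of all tested genes. With the stricter filter 2 of the 19 passed. Ppp1r15b, the constitutive partner of the eIF2 phosphatase, differed by 0.31 (adjusted p = 0.19). With any array left out the difference of Eif2ak2 was 0.67 to 0.80 with an adjusted p of 0.059 to 0.11.

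Of 24 tested bZIP relatives and partners, Fosb rose by 0.74 and Batf2 by 0.59, and none fell (8.33% against 6.79% of all genes; median 0.02). With any array left out neither passed (limma adjusted p of 0.065 to 0.11 for Fosb and 0.11 to 0.18 for Batf2); 6 of the list passed with the stricter filter or the intensity trend, 1 without the filter and 1 with the replicate block. Cebpb, a partner with which ATF4 binds the composite element and itself an ATF4 target, read 8.63 on both control arrays and 8.07 and 8.25 in knockout, a difference of -0.47 that missed the threshold (limma adjusted p = 0.053). Cebpg, another partner, differed by 0.09 (adjusted p = 0.70). Among paralogs of the 9 genes, Sesn3 read 5.78 and 5.59 in control and 6.18 and 6.51 in knockout, a difference of 0.66 (adjusted p = 0.055) opposite in sign to Sesn2. Sesn1 at 0.09, Trib1 at 0.18 and Eif4ebp2 at -0.14 did not pass, and Trib2 and Ddit4l lay below the filter. None of these 4 tested paralogs passed (limma, 1 with an unadjusted p under 0.05). With the stricter filter 1 paralog passed, and with the intensity trend 1.

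Of 23 tested genes of the IRE1-XBP1 and ATF6 branches, 0 passed by limma, with 7 at an unadjusted p under 0.05 (24.7% of all genes were), a median of -0.14 and 18 negative differences. Sdf2l1 differed by -0.61 (adjusted p = 0.067) and Hyou1, a chaperone gene, by -0.46 (0.053). With the stricter filter 5 of the list passed, with the intensity trend 5, and with quantile normalization or median centring 1. Hspa5, the chaperone BiP, differed by -0.15 and Xbp1 by -0.28. For mTORC1 and its regulators, the complex that Ddit4, Sesn2 and Eif4ebp1 bear on, 0 of 30 passed by limma, against 6.79% of all genes. Of these 30, 6 had an unadjusted p under 0.05, and differences lay between -0.30 and 0.44. With the stricter filter 1 of the 30 passed, and with the intensity trend 1.

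Ddit4, Sesn2, Atf3 and Trib3 also respond to other inputs, and lists for these were set beside them. Whether any of these inputs had a part in the differences of the 9 genes was not tested. Of 15 tested targets of the hypoxia factor HIF, 7 fell and 0 rose (46.7%, against 3.49% of all genes that fell; median -0.49 against 0.0076), and all 15 differences were negative. Ak4, a mitochondrial adenylate kinase, differed by -1.88, Pfkl and Pgk1 of glycolysis by -0.88 and -0.63, and the glucose carrier gene Slc2a1 by -0.87. Ddit4, at -1.14, did not pass (limma adjusted p = 0.10). Of 17 tested p53 targets, Pmaip1 at 0.88, Trp53inp1 at 0.77 and Btg2 at 0.55 rose and none fell (17.6%, against 3.30% of all genes that rose; median 0.13). Of 8 glucocorticoid-responsive genes Zbtb16 rose by 1.51 (12.5%, against 6.79% of all genes called), and 6 of the 8 had negative differences, led by Klf9 at -0.60 (adjusted p = 0.064). Fkbp5 at -0.23, Per1 at -0.23 and Tsc22d3 at 0.10 did not pass either. With any array left out, 1 of the 15 HIF targets, 0 or 1 of the p53 targets and 1 of the glucocorticoid-responsive genes passed.

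**Figure D4:**
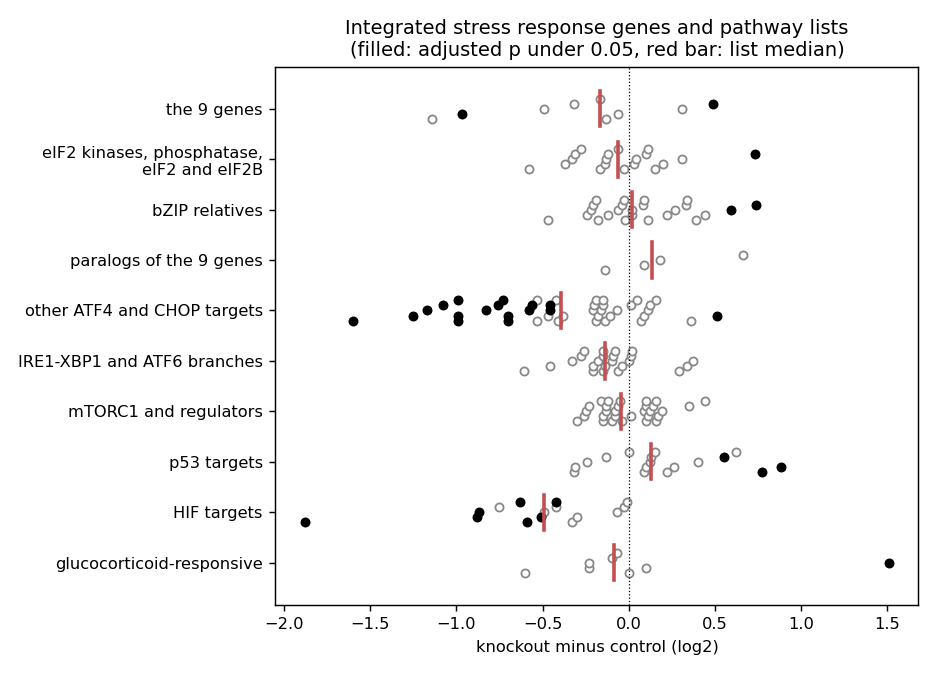
Difference between knockout and control (log2, horizontal axis) of every tested gene in each list (rows); filled points passed an adjusted p of 0.05, open points did not, and red bars mark list medians. The list of other ATF4 and CHOP targets has a median of -0.40 and the HIF targets one of -0.49, while the eIF2, bZIP and mTORC1 lists have medians between -0.06 and 0.02.

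Genes with the nearest array profiles were taken, for both genes that passed, by the root mean square distance between values centred on each gene's mean over the 4 arrays. For Asns these were Igf2bp3, an mRNA-binding protein gene (distance 0.031, difference -1.00), Ptprn (0.039, -0.92) and Cracdl (0.054, -1.02). For Ddit3 they were Cldn23, a claudin gene (0.012, difference 0.48), the endolysosomal cation channel gene Tpcn1 (0.014, 0.49) and Gtpbp8 (0.015, 0.51). All 6 passed the test, and with 4 arrays a near profile says no more than that the values ran alike.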

How the data were processed

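The deposited log2 values were made by the authors with robust multi-array averaging, that is background adjustment, normalization and a log2 transform, per the series' design text; RMA and oligo are named, without versions, in the submitters' processing notes. Per the labels' protocols, 400 ng of total RNA was labelled per array. The table holds 41345 features on 4 arrays; normalization between arrays removes any change in total RNA per cell, and differences of dim features are understated. Of the features, 23521 had 1 gene symbol in the platform annotation, 1814 several and 16010 none. For the 1082 genes with several features, the one with the highest mean was used. Genome build and probe positions are not given in the sources used here; promoters are RefSeq's (GRCm38.p6).

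Knockout was compared with control in R 4.3.3 by limma 3.58.1 (two-sided; lmFit, then eBayes with a constant prior and no block), with Benjamini-Hochberg adjustment over 12542 genes; 2 residual and 3.51 prior degrees of freedom; median residual SD 0.0995. The fit was run on simulated arrays with independent noise, whose variances followed the prior fitted to these data. The noise was normal, as limma assumes, so this does not test the fit for other noise or for genes that vary together. The genes, lists and tests were chosen with earlier results of these data known. Named were the 9 genes, Ppp2ca and Lyz2, up to 4 called genes per list with the largest difference, 17 fixed pathway genes and the 3 nearest profiles of each called gene; other genes were named after their values were seen. The alternatives changed the filter, scaling (quantile, median), feature choice, prior, array weights, the replicate block and each array left out.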

Additional observations from a re-analysis of the deposited data

How the results depend on the processing

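Asns, Ddit3, Atf3, Atf4, Atf5, Ddit4 and Eif4ebp1 kept their direction in every setting. For most settings this was fixed beforehand, because those of filter, feature choice, prior and block kept the same group means. Leaving out 1 array cannot turn a gene whose groups did not overlap, which holds for all of these but Atf5. Sesn2 turned to 0.03 without control replicate 1 (range -0.36 to 0.03 without an array) and Trib3 to 0.07 without knockout replicate 2 (-0.18 to 0.07). Of 9 genes, 2 passed as reported (limma); 1 passed with no filter (Asns), 1 with median centring (Asns), 5 with an intensity trend in the prior (Asns, Ddit3, Atf3, Atf4 and Ddit4), 0 with all features as units (5 at an unadjusted p under 0.05) and 0 in each fit without an array (0 to 0). Over all genes the 852 calls became 333 with no filter, 1475 with the stricter filter, 1584 with the trend, 15 with all features as units and 96 to 174 without an array; 69 of the 852 passed in all 4 of the latter. The pathway lists together had 31 called genes, and 15 with no filter, 47 with the stricter filter, 50 with the trend, 0 with all features as units (limma, 62 at an unadjusted p under 0.05) and 4 to 7 without an array. Ddit3, at 0.49, lost its call with no filter (adjusted p = 0.10) and with all features as units (0.15), and at 0.44 with median centring (0.058); without an array it lay between 0.42 and 0.55. Asns, at -0.97, lost its call with all features as units (0.093), and lay between -1.05 and -0.88 without an array. Atf4, at -0.32, passed with the trend (0.036), Atf3, at 0.31, with the trend (0.014) and the stricter filter (0.041), and Ddit4, at -1.14, with the trend (0.044). The stricter filter leaves out Ddit4, whose mean is below 5. Leaving out an array leaves 1 in its group, which is assumed to vary like the other.

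The labels do not say whether same-numbered control and knockout arrays were prepared together. Deviations of same-numbered arrays correlated at -0.04 across genes, which cannot settle whether they were paired. With the replicate number as a block, 312 genes, 16 list genes and 2 of the 9 passed, the latter being Asns and Ddit4 (-1.14, adjusted p = 0.031) in place of Ddit3 (0.49, adjusted p = 0.088). Quantile normalization, the mean of a gene's features, the robust prior, array weights and, for the counts of genes, the 1.5-fold cutoff kept these counts within 1.5 times. Probes near background, as for Ddit4 and Vldlr, limit the precision of small differences.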
